A study of Mus musculus with 12 samples.

Results

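The ATP synthase genes described here are 10 nuclear genes: Atp5a1, Atp5b, Atp5c1 and Atp5d for the catalytic F1 head and its central stalk, Atp5g1, Atp5g2 and Atp5g3 for the c subunit, Atp5k and Atp5l for the small membrane subunits e and g, and Atpif1 for the inhibitor protein. They were chosen by symbol, and each was found at 1 of the 44450 loci listed for the heart. All 10 passed the filter on low values, at least 1 FPKM (read fragments mapped to the locus, scaled to transcript length and library depth) in at least 3 of the 6 total RNA libraries, which 12181 loci passed in all. The libraries came from hearts of C57BL/6N mice aged 11 weeks, 3 control and 3 knockout. Both groups carried Mrpp3loxP/loxP. The knockouts carried in addition +/Ckmm, a notation that commonly stands for Cre recombinase driven by the muscle creatine kinase promoter, which acts in striated muscle cells, so cells of other types in the heart are not its target and an effect of Cre itself cannot be told apart from that of the deletion. MRPP3 (gene Prorp) is the nuclease of mitochondrial RNase P, which frees the 5′ ends of mitochondrial tRNAs, and the comparison asks how heart transcripts differ when it is lost. Another 6 libraries of the series hold RNA ends from isolated mitochondria and were not analysed here.

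ATP synthase, or complex V, lets protons run back across the inner mitochondrial membrane through a rotating ring of c subunits, and the turning of the central stalk drives ATP formation at the β subunits of the F1 head. Subunits e and g sit in the membrane at the interface between neighbouring complexes, where the complexes form dimers that shape the cristae. All subunits but the mitochondrially encoded a (mt-Atp6) and A6L (mt-Atp8) are made from nuclear genes. The 3 c-subunit genes encode the same mature protein behind different import sequences. The inhibitor factor IF1, the product of Atpif1, binds F1 and blocks the reverse reaction, the breakdown of ATP, when the membrane loses its potential. Heart muscle makes most of its ATP through this enzyme.

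Prorp, listed in the files under an older name, had 2.64 to 3.49 FPKM in the controls and 0.441 to 0.701 in the knockouts. Depth is not given, and was estimated from the step size of low values, which put knockouts at 2.06 to 2.57 and controls at 1 to 1.35 times control replicate 1, so depth differed with genotype. The 8 heart muscle markers (Myh6, Myl2, Myl3, Tnni3, Tnnt2, Actc1, Ryr2 and Pln) were abundant in every library. Their summed FPKM was 34513 to 39734 in controls and 7611 to 16601 in knockouts, and 7 of the 8 fell. The markers did not move as a block. In knockout replicate 2 Myl2 and Myl3 were at 662 and 226 FPKM, the lowest of the knockouts. Myh6 and Ryr2, at 2327 and 79.0 FPKM in it, lay between the other knockouts. Macrophage markers summed to 45.4 to 47.6 in controls and 153 to 271 in knockouts, with 5 of 5 higher, and most of the knockout sum came from Lgals3 (80.4 to 190 FPKM, with 0.859, 1.226 and 1.116 in controls). Fibroblast markers overlapped in sum, at 267 to 331 and 258 to 344, with 2 of 5 higher. Most of that sum came from Dcn, at 217 to 265 FPKM in controls and 181 to 202 in knockouts. Col1a1 (4.42 to 6.90 and 14.3 to 37.8) and Col1a2 (18.3 to 26.5 and 38.6 to 73.8) went up without overlap, and Pdgfra and Lum overlapped. Endothelial markers overlapped, at 144 to 161 and 129 to 159, with 0 of 4 called. These marker counts compare with 19.5% of all tested loci called lower and 16.1% called higher by the test given below. Knockout replicate 2 stood apart: atrial markers reached a summed 3706 FPKM in it, with 119 in replicate 1, 7.63 in replicate 3 and at most 6.75 in controls, and erythroid markers to 21895 against 622 and 2010, with 1572 to 2902 in controls. Adipocyte markers summed to at most 32.7 FPKM, mostly from Cidea, with Ucp1 at or near 0 in every library. Fast skeletal muscle markers summed to at most 1.19 FPKM, with Myh4 at 0 in all libraries. How far the lower level of heart muscle markers or the make-up of knockout replicate 2 entered the values below was not tested. Results that rest on that library are given with and without it. In whole tissue, fewer muscle cells and less RNA per cell cannot be told apart.

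Among 9 of the members with a promoter entry in RefSeq (GRCm38.p6; none was used for Atp5a1), short matches to the core of the NRF1 binding sequence, GCGCANGCG on either strand, were found in 6. NRF1 is a transcription factor known for binding genes of the respiratory chain, and the stretches are shown because these 6 include genes that fell, genes that did not pass the test and a gene that is hardly expressed here. They are written 5′ to 3′ in the sense of the gene, with the match in capitals, and positions are counted from the annotated start of that window, base 1 being the first transcribed base.

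Atp5k, chr5:108434431-108434458, minus strand, positions -50 to -41, with 2 overlapping matches: ttcactgcgGCGCATGCGCctttctggc
Atp5c1, chr2:10080432-10080458, minus strand, positions -17 to -9: tgagctcccGCGCACGCGcactgagtc
Atp5g3, chr2:73911296-73911322, minus strand, positions 14 to 22: gccgcaccgCGCTTGCGCgcccagccc
Atp5g2, chr15:102671071-102671098, minus strand, positions -42 to -33, with 2 overlapping matches: gctccggccGCGCATGCGCagagccttc
Atp5l, chr9:44920966-44920992, minus strand, positions -241 to -233: aaccaataaCGCATGCGCatttccccc
Atpif1, chr4:132535538-132535564, minus strand, positions -141 to -133: gaccgttctGCGCAAGCGcagcctcac

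These matches lie in 6 of the 11 promoter windows of the members (250 bases before to 50 after a start, some genes having more than 1 start), while 6.25% of all 32851 windows and 13.2% of the 11379 windows of genes tested here hold one. The core AAGGTCA of the estrogen-related receptors, nuclear receptors of oxidative metabolism, lay in the windows of 4 members, whose genes are all on the minus strand. In the sense of the gene it was found as such for Atp5k and Atpif1. For Atp5l and Atp5g3 it was found as its reverse complement, TGACCTT.

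Atp5k, positions 24 to 30, chr5:108434361-108434385: tccggcgcgAAGGTCAcggacaaaa
Atp5l, positions -13 to -7, chr9:44920740-44920764: ggggcagccTGACCTTggaaatggg
Atp5g3, positions -52 to -46, chr2:73911363-73911387: gttacaaagTGACCTTgagcgtctt
Atpif1, positions -239 to -233, chr4:132535638-132535662: tcactgtagAAGGTCAtaaatgcct

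That core is in 4.72% of all windows and in 3.23% of those of tested genes. Atp5k, Atp5l, Atp5g3 and Atpif1 held both cores. The ETS core CCGGAAG was found for 2 members, Atp5k and Atp5l (8.86% of all windows, 17.3% of those of tested genes), the GC box GGGCGG for 3 (35.7 and 62.4%) and the TATA box TATAAA for 1 (13.6 and 7.32%). The YY1 core AAGATGG (6.34 and 7.02%) and the amino acid response element TGATGNAA (3.97 and 2.25%), a sequence read by ATF4, were found for 0. Each motif was searched on both strands, and no match overlapped one of another motif. A match is a run of letters, not a measured binding site.

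Atp5k, Atp5a1, Atp5g3 and Atp5c1 fell, and none of the 10 passed the test in the other direction. Atp5k went to 37.1% of its control mean, Atp5a1 to 49.9%, Atp5g3 to 52.5% and Atp5c1 to 55.9%. The count of 4 of 10 lower compares with 19.5% of all tested loci called lower, and the count of 0 of 10 higher with 16.1% called higher (limma with Benjamini-Hochberg adjustment over all loci, adjusted p under 0.05). An unadjusted p under 0.05 was reached by 6 members, all lower, and by 25.5% of all loci in that direction. The knockout and control libraries did not overlap, with the knockouts lower, for 6 members, against 28.7% of all loci. The median log2 fold change (knockout over control, from log2(FPKM + 0.5) values) was -0.61 over the members and -0.02 over all tested loci. When every library was scaled to the same summed FPKM the median of all loci moved to 0.19 and that of the members to -0.38. The number of members called was then still 4 lower and 0 higher, beside 11.5% of loci lower and 26.5% higher. Without knockout replicate 2, 4 members were lower and 1 was higher, beside 19.6% and 17.7% of loci. With no filter on low values, where only the 21947 loci at 0 in every library were left out, Atp5k alone of the 10 was called, with 9.45% of loci lower. Leaving out control replicate 1 or knockout replicate 1 gave 2 members lower, beside 12.6 and 16.1% of loci. Without control replicate 2 or 3 the count was 1, near the 11.6 and 12.1% of loci called lower, and without knockout replicate 3 it was 5, beside 19.2%.

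**Figure D1:**
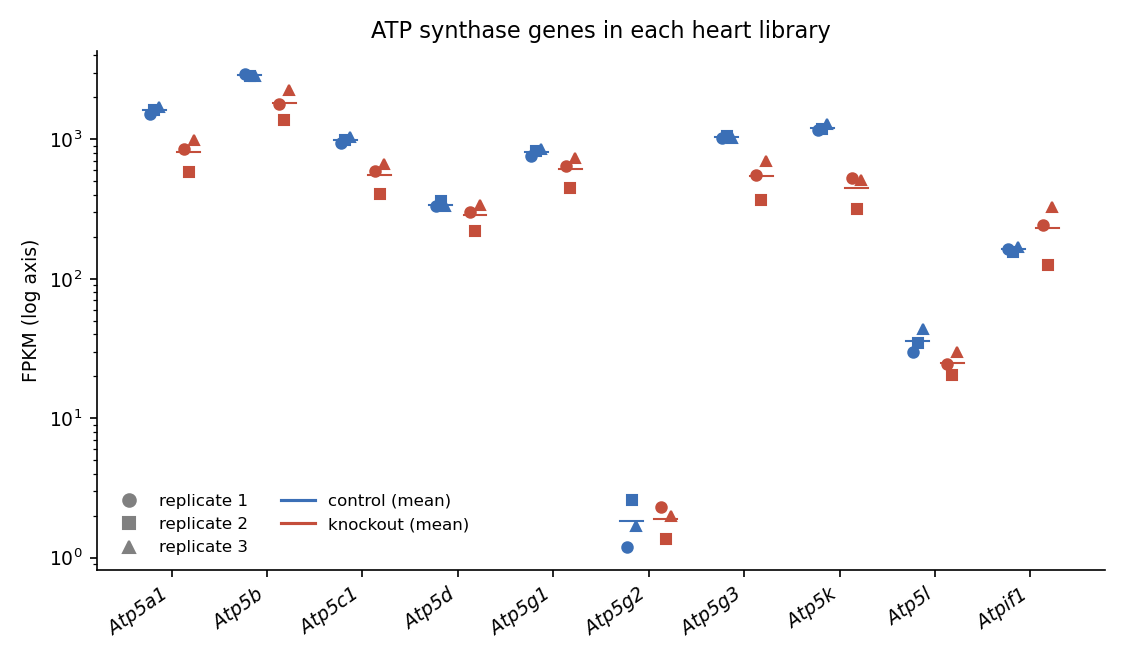
FPKM of the 10 genes in each library on a log axis, with controls in blue, knockouts in red, symbols for replicates 1 to 3 and a bar at each group mean. The genes span from Atp5g2 at 1.198 to 2.60 FPKM to Atp5b at 1372 to 2927 FPKM, and knockout replicate 2 (red squares) is the lowest knockout library for every gene.

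The F1 head was led by Atp5b and Atp5a1. Atp5a1, which encodes the α subunit, had 1532, 1636 and 1697 FPKM in control replicates 1 to 3 and 855, 587 and 985 FPKM in knockout replicates 1 to 3. Every knockout library lay below every control. The log2 fold change was -1.03 (SE 0.25, adjusted p = 0.0167 by limma), and the call was lost without control replicate 2 or 3 (adjusted p = 0.0690 and 0.0620). Atp5c1, for the γ subunit that turns inside the head, had 943, 988 and 1049 FPKM in controls and 593, 404 and 670 FPKM in knockouts, again without overlap. Its log2 fold change of -0.87 (SE 0.23, adjusted p = 0.0253 by limma) lost its call without any one control or knockout replicate 1 (adjusted p = 0.0566 to 0.0890) and after quantile normalization (log2 fold change -0.40, adjusted p = 0.0642).

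Atp5b encodes the β subunit, which carries the catalytic sites, and was the most abundant member in all 6 libraries. Its FPKM was 2927, 2865 and 2833 in controls and 1806, 1372 and 2275 in knockouts. The groups did not overlap, but the knockouts varied more (SD 452 against 47.8 FPKM) and the test did not pass (log2 fold change -0.69, 95% interval -1.32 to -0.06, adjusted p = 0.0825 by limma). Without knockout replicate 2 it stood at -0.50 (adjusted p = 0.0538), and after quantile normalization at -0.24 (adjusted p = 0.3003). Atp5b passed when the variance trend of the fit was left out (-0.69, adjusted p = 0.0290 by limma). Atp5d, for the δ subunit at the foot of the central stalk, had 330, 361 and 330 FPKM in controls and 300.3, 220 and 340 FPKM in knockouts, and the groups overlapped. Its log2 fold change was -0.27, with a 95% interval from -0.73 to 0.19 (adjusted p = 0.317 by limma), and it was 0.031 after quantile normalization, -0.04 with libraries scaled to the same sum and -0.09 without knockout replicate 2.

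Within a library the F1 transcripts also stood in other proportions to each other. For every 100 FPKM of Atp5b there were 52.3 to 59.9 FPKM of Atp5a1 in controls and 42.8 to 47.3 in knockouts, so the groups did not overlap. Atp5d stood at 11.3 to 12.6 per 100 of Atp5b in controls and 14.9 to 16.6 in knockouts, also without overlap and in the opposite direction. Atp5c1 stood at 32.2 to 37.0 and 29.4 to 32.8, which overlapped. These 3 ratios were formed after the values had been seen and were not tested. Multiplying a library by a constant leaves such ratios as they are, while quantile normalization can change them.

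The c-subunit genes parted from each other. Atp5g3 had 1021, 1057 and 1020.0 FPKM in controls and 559, 370.2 and 698 FPKM in knockouts, without overlap, a log2 fold change of -0.98 (SE 0.26, adjusted p = 0.0234 by limma). This call was lost without any one control or knockout replicate 1 (adjusted p = 0.0577 to 0.0847) and after quantile normalization (-0.55, adjusted p = 0.0579). Atp5g1 had 757, 829 and 847 FPKM in controls and 641, 452 and 738 FPKM in knockouts. Its knockout libraries were all below the controls, with replicate 3 the closest, and the test did not pass (log2 fold change -0.44, 95% interval -0.97 to 0.10, adjusted p = 0.173 by limma). Its sign turned to 0.087 after quantile normalization, and the value was -0.21 with libraries scaled to the same sum and -0.24 without knockout replicate 2 (adjusted p = 0.411 and 0.211). Atp5g2, which shares its locus with the microRNA gene Mir688, had 1.198, 2.60 and 1.68 FPKM in controls and 2.31, 1.37 and 2.00 in knockouts. The groups overlapped throughout, and the log2 fold change of 0.07 (95% interval -0.54 to 0.67, adjusted p = 0.865 by limma) turned to -0.14 without control replicate 1 and to -0.06 without knockout replicate 1.

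Atp5g1 made up a larger share of the c-subunit RNA in every knockout library than in any control. The Atp5g1 share of the FPKM summed over the 3 genes was 42.5, 43.9 and 45.3% in controls and 53.3, 54.9 and 51.4% in knockouts, means of 43.9 ± 1.39% and 53.2 ± 1.77% (SD, n = 3 each, exact two-sided permutation p = 0.10). The share of Atp5g3 was 57.4, 56.0 and 54.6% in controls and 46.5, 45.0 and 48.5% in knockouts (exact permutation p = 0.10). Atp5g2 contributed 0.0674, 0.137 and 0.0900% in controls and 0.192, 0.166 and 0.139% in knockouts (exact permutation p = 0.10), while its own FPKM overlapped. The groups did not overlap for any of the 3 shares, and 0.10 is the smallest p that 3 against 3 libraries allow. The shares add up to 100%, so those of Atp5g1 and Atp5g3 mirror each other and are not separate results. Adjusted over the 4 such tests made, with the Atpif1 ratio below, each p stayed at 0.10. The order of the pair changed with genotype: Atp5g3 was above Atp5g1 in all 3 controls and below it in all 3 knockouts, and Atp5g1 was the sixth most abundant of the 10 genes in every control and the third in every knockout. The summed c-subunit RNA moved with the β subunit, at 60.8 to 66.0 FPKM per 100 of Atp5b in controls and 60.0 to 66.5 in knockouts.

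**Figure D2:**
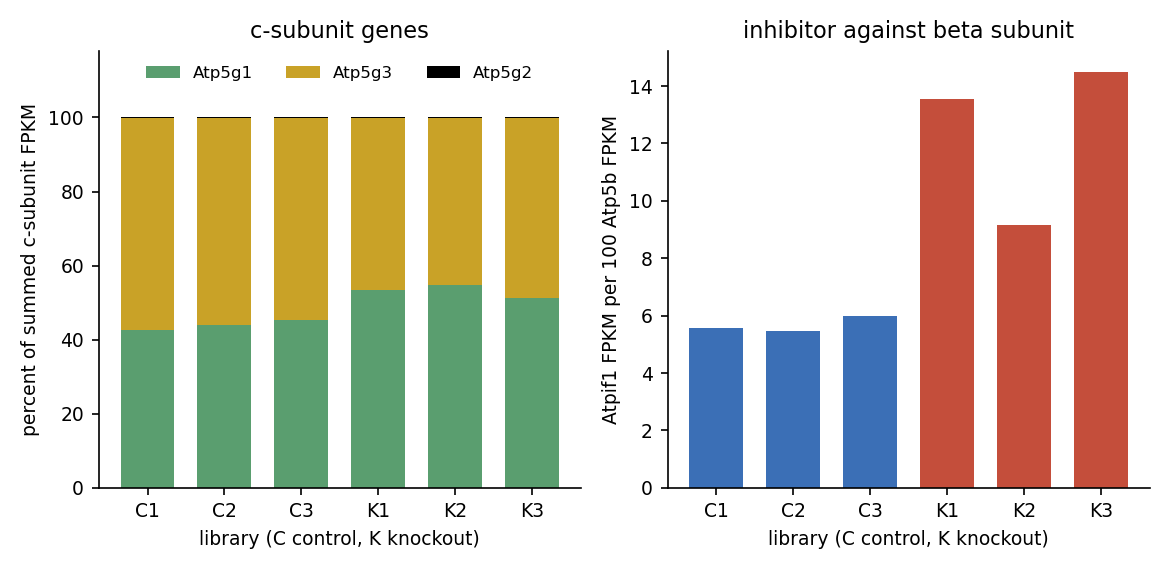
Left, the percent of summed c-subunit FPKM from each of the 3 genes in control (C1 to C3) and knockout (K1 to K3) libraries. Atp5g1 takes 42.5 to 45.3% in controls and 51.4 to 54.9% in knockouts, and Atp5g2 is a thin line at the top. Right, Atpif1 FPKM per 100 FPKM of Atp5b, which is 5.45 to 5.98 in controls and 9.16 to 14.5 in knockouts.

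Of the dimer subunits, Atp5k had the most negative log2 fold change of all members. The gene (chromosome 5, 108433246 to 108434399, GRCm38) had 1175, 1186 and 1290.4 FPKM in controls and 531, 315 and 508 FPKM in knockouts. The highest knockout library was thus well below the lowest control, and the log2 fold change was -1.47 (SE 0.24, adjusted p = 0.00413 by limma). The call held in all 15 alternative analyses, over which the log2 fold change ran from -1.60 to -1.11. Atp5k ranked the third most abundant of the 10 genes in every control library and the sixth in every knockout library, and fell from 40.1 to 45.5 FPKM per 100 of Atp5b to 22.3 to 29.4. A pseudogene copy, Atp5k-ps2, was listed at 91.2, 83.4 and 87.3 FPKM in controls and 38.7, 24.5 and 31.5 in knockouts (log2 fold change -1.48, adjusted p = 0.00119 by limma). Reads of Atp5k may be divided between the 2 loci, and their sum moved the same way.

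Atp5l, for subunit g, was listed below all members but Atp5g2, at 29.8, 34.6 and 43.8 FPKM in controls and 24.4, 20.6 and 29.9 in knockouts. The highest knockout and the lowest control overlapped narrowly. The log2 fold change of -0.52 (95% interval -0.97 to -0.07) did not pass (adjusted p = 0.0694 by limma), although it passed without knockout replicate 3 (-0.66, adjusted p = 0.0374) and after quantile normalization (-0.46, adjusted p = 0.0442). It was smaller with libraries scaled to the same sum (-0.29, adjusted p = 0.153) and without control replicate 3 (-0.37, adjusted p = 0.208). Whether so low a value is a sound estimate for this subunit was not tested. Its 3 listed pseudogenes were at most 0.603 FPKM. Against Atp5b it did not separate the groups, with 1.02 to 1.55 and 1.31 to 1.499 FPKM per 100.

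Atpif1, the inhibitor, went against the subunits in 2 of the 3 knockout libraries. The gene (chromosome 4, 132530555 to 132535450, GRCm38) had 163, 156 and 170 FPKM in controls and 244, 126 and 329.9 FPKM in knockouts. Knockout replicates 1 and 3 were above every control, at 150.1 and 203% of the control mean, and replicate 2 was below every control, at 77.2%. With all libraries the log2 fold change was 0.41 (SE 0.33, 95% interval -0.35 to 1.17) and did not pass (adjusted p = 0.358 by limma). Without knockout replicate 2 it was 0.80 and passed (adjusted p = 0.00763 by limma), while without knockout replicate 3 it was 0.11 (adjusted p = 0.789). With libraries scaled to the same sum it was 0.64 (adjusted p = 0.119). Knockout replicate 2 is the library with atrial and erythroid RNA described above, and all 10 members were at their lowest knockout level in it.

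Relative to the β subunit within the same library, Atpif1 was higher in all 3 knockouts. There were 5.56, 5.45 and 5.98 FPKM of Atpif1 per 100 of Atp5b in controls and 13.5, 9.16 and 14.5 in knockouts. The mean log2 ratio was -4.14 ± 0.07 in controls and -3.04 ± 0.36 in knockouts (SD, n = 3 each), a difference of 1.103 (exact two-sided permutation p = 0.10, the smallest possible). It was 0.98 to 1.31 with any one library left out, and 1.31 without knockout replicate 2. The ratio therefore separated the groups in the library where the FPKM of Atpif1 did not. In that library Atpif1 was at 77.2% and Atp5b at 47.7% of the control mean, so the ratio rose there through its denominator. Over all libraries the log2 fold changes were 0.41 for Atpif1 and -0.69 for Atp5b, and neither passed. A locus at the median of all tested loci, -0.02, would also rise against Atp5b.

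**Figure D3:**
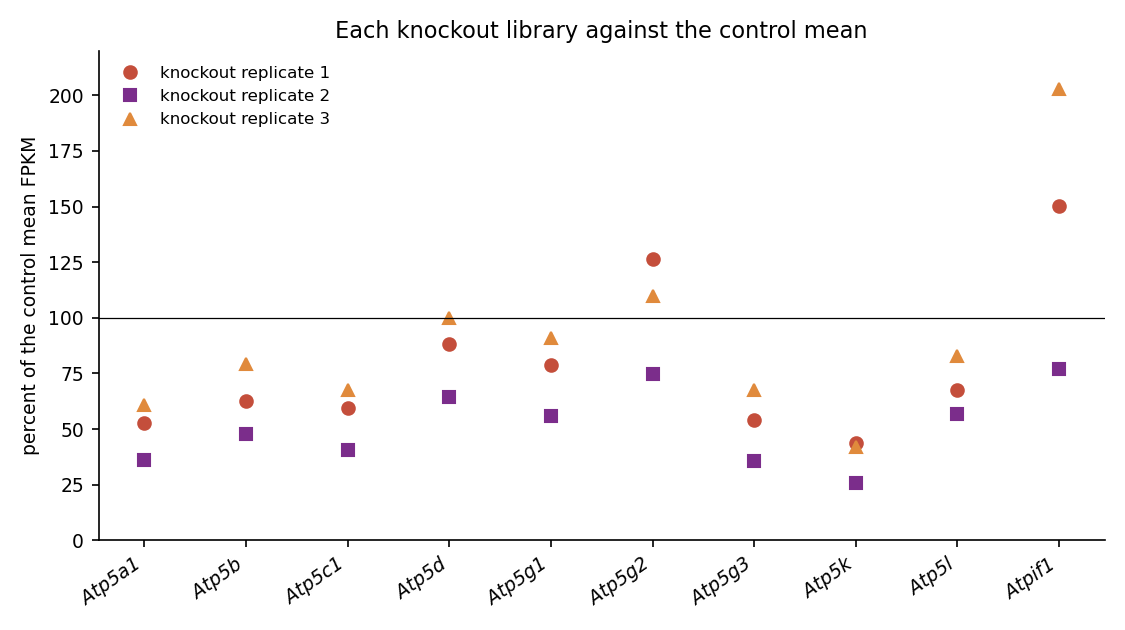
Each knockout library's FPKM as a percent of the control mean, by gene, with the line at 100 marking the control mean. Atp5k lies at 25.9 to 43.6%, Atp5d and Atp5g1 reach 99.8 and 91.1% in replicate 3, and Atpif1 spans 77.2 to 203%.

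The knockout libraries differed among themselves more than the controls did for 8 of the 10 genes. The coefficient of variation over the 3 knockouts was 21.4 to 30.3% for the 6 F1 and c-subunit genes above 100 FPKM, against 1.66 to 5.87% in controls. Atpif1 had 44.0 against 4.13% and Atp5k 26.2 against 5.23%. The low genes went the other way, Atp5l with 18.7% in knockouts and 19.8% in controls and Atp5g2 with 25.4 and 38.9%. The order of the knockout libraries was nearly common to the set, with replicate 2 lowest for all 10 genes and replicate 3 highest for 8 of them, the exceptions being Atp5k and Atp5g2. The same order holds for the sum of the heart muscle markers, at 15319, 7611 and 16601 FPKM in knockout replicates 1 to 3. By gene it holds only for Tnnt2, Actc1 and Pln. Myl2, Myl3 and Tnni3 were highest in replicate 1, and Myh6 and Ryr2 were lowest in it. What part these markers have in the members' order was not tested.

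The rest of complex V was described from 3 further lists of 21 genes, chosen with earlier results of these data known. All 9 other nuclear genes listed as subunits fell, beside 19.5% of all tested loci called lower. Their median log2 fold change was -0.87, and that of all tested loci -0.02. Atp5s is counted among them by its older name. Its RefSeq symbol is Dmac2l, and it was low, at 9.32 to 11.3 FPKM in controls. The largest falls were those of Atp5e (the ε subunit), from 700.2 ± 101 to 298 ± 47.6 FPKM (log2 fold change -1.24, adjusted p = 0.00382 by limma), and Atp5j (coupling factor 6 of the peripheral stalk), from 395 ± 21.5 to 177 ± 38.8 FPKM (-1.18, adjusted p = 0.00438 by limma). Usmg5, a small membrane subunit also called DAPIT, and Atp5h, subunit d of the peripheral stalk, fell by 1.14 and 1.12 on the log2 scale. These 4 calls held in all 15 alternatives. Atp5o at its locus shared with Donson, Atp5j2 and Atp5f1 fell by 0.87, 0.86 and 0.81, and 2010107E04Rik and Atp5s by 0.80 and 0.68. Each of these 5 lost the call without control replicate 2 or 3, with adjusted p of 0.0554 to 0.105. All of them but Atp5o also lost it without control replicate 1 (adjusted p = 0.0559 to 0.0890). Without knockout replicate 1, 2010107E04Rik and Atp5s lost it (adjusted p = 0.0658 and 0.0753). Atp5s lost it without knockout replicate 2 as well (-0.58, adjusted p = 0.0531). With libraries scaled to the same sum 2010107E04Rik and Atp5s also lost it (-0.57 and -0.47, adjusted p = 0.0606 and 0.0715), and quantile normalization ended that of 2010107E04Rik (-0.44, adjusted p = 0.0642), left Atp5o at -0.42, Atp5f1 at -0.51 and Atp5j2 at -0.56, and kept these 3 calls. mt-Atp6 and mt-Atp8 share a locus with mt-Co3 that was listed at 332 to 357 FPKM in controls, at 167 in knockout replicate 2 and at 0 in the other knockouts. Such abundant RNA listed at 0 may be a failed estimate, so no fold is given.

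**Figure D4:**
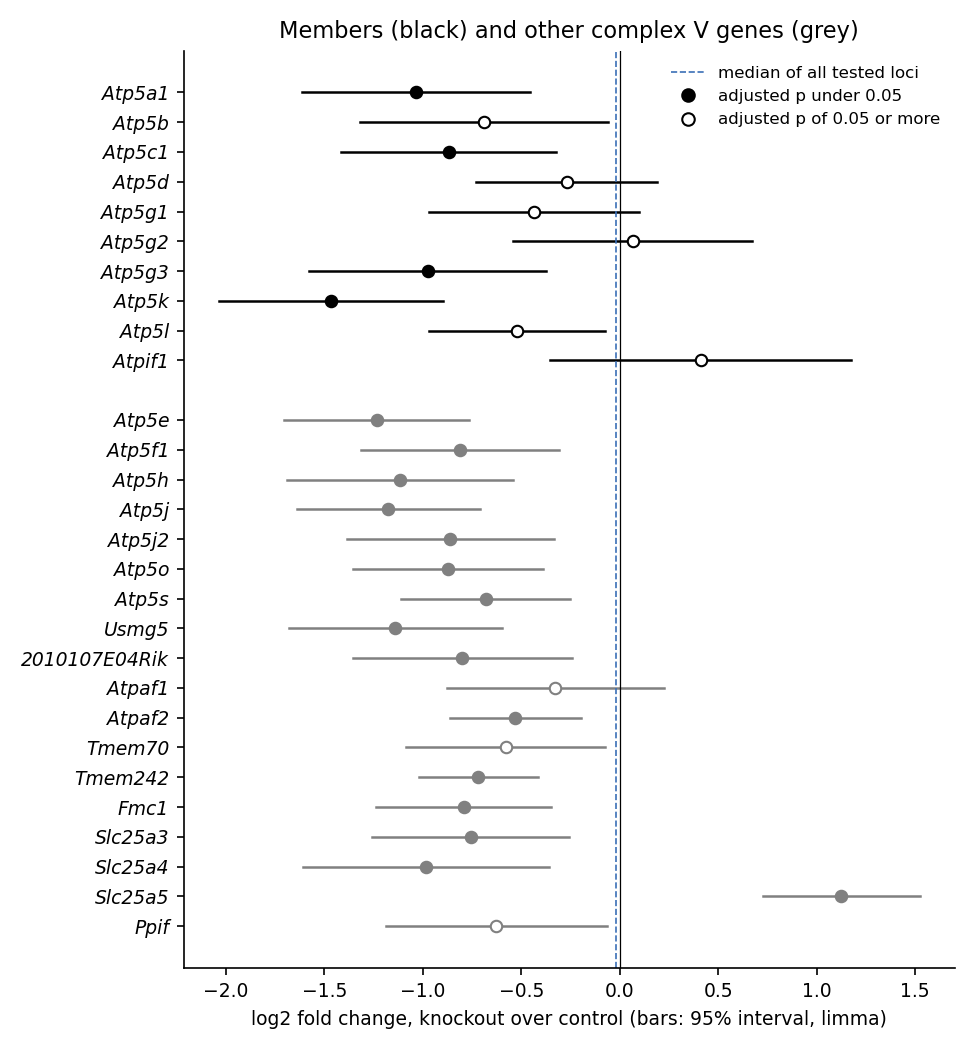
Log2 fold change, knockout over control, with 95% limma intervals, for the 10 members in black and 18 other complex V genes in grey. Filled points passed the test at an adjusted p under 0.05, the dashed line is the median of all tested loci at -0.02, and Slc25a5, Atpif1 and Atp5g2 stand to the right of 0 by 1.12, 0.41 and 0.07.

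Assembly factors, which join the subunits and are not part of the finished enzyme, fell in 3 of 5 cases. Tmem242 went from 54.8 ± 1.46 to 33.3 ± 3.94 FPKM (log2 fold change -0.72, adjusted p = 0.00539 by limma), and Fmc1 and Atpaf2 fell by 0.79 and 0.53, calls that were both lost without control replicate 2 or 3. Scaling to the same sum also ended the call of Atpaf2 (-0.31, adjusted p = 0.0778). Atpaf1 and Tmem70 did not pass, at -0.33 and -0.58, but did without knockout replicate 3 (-0.58 and -0.72, adjusted p = 0.0343 and 0.0455). Both were smaller without knockout replicate 2, at -0.12 and -0.33, and with libraries scaled to the same sum, at -0.11 and -0.35. Of the partners that exchange substrate with the enzyme, Slc25a3, the phosphate carrier, and Slc25a4, the adenine nucleotide translocase of heart and muscle, fell by 0.76 and 0.98, calls lost without any one control or knockout replicate 1. Slc25a3 also lost its call with libraries scaled to the same sum (-0.53, adjusted p = 0.0528) and after quantile normalization (-0.30, adjusted p = 0.134), which left Slc25a4 at -0.61. Slc25a5, the translocase of most other tissues, rose from 143, 171 and 149 FPKM to 342, 285 and 388 FPKM (log2 fold change 1.12, SE 0.17, adjusted p = 0.00301 by limma), a call that held in all 15 alternatives. Its share of the summed FPKM of both translocases was 7.03 to 8.18% in controls and 23.8 to 29.3% in knockouts. The regulator Ppif, cyclophilin D, did not pass (-0.63, adjusted p = 0.0784 by limma), but did without knockout replicate 1 (-0.85, adjusted p = 0.0310), and was -0.41 without knockout replicate 2 and -0.40 with libraries scaled to the same sum. Slc25a31 was at most 0.460 FPKM and not tested. In all, 14 of the 18 tested genes of these lists fell and 1 rose, beside 19.5 and 16.1% of all loci. Without control replicate 2 or 3 the number that fell was 5, beside 11.6 and 12.1%.

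The loci whose profile over the 6 libraries lay closest to the mean profile of the members were Cox5a, Ndufa8, Cox6b1, Cyc1 and Gfm1. Likeness was the root mean square difference between centred log2 values, which was 0.03 to 0.05 for these 5 and 0.38 at the median of 990 loci with a mean of at least 50 FPKM. Cox5a and Cox6b1 encode subunits of complex IV, Ndufa8 one of complex I, Cyc1 one of complex III, and Gfm1 an elongation factor of mitochondrial translation. None of them passed the test (log2 fold change -0.63 to -0.52, adjusted p = 0.0504 to 0.148 by limma). Cox5a, the closest, went from 652 ± 23.0 to 444 ± 109 FPKM. Of the members, Atp5g1 was nearest to that mean profile, at 0.07, and Atpif1 farthest, at 0.53, followed by Atp5k at 0.45.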

How the data were processed

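Hearts were profiled by total RNA sequencing with random hexamer priming after Ribo-Zero depletion, per the labels' protocols, and 6 libraries were analysed. The deposited values are, as the authors named their tables, FPKM (fragments per kilobase and mapped fragments) per locus and library. Tools named in the submitters' processing notes include HISAT 0.1.6, StringTie 1.1.0, Cufflinks 2.2.1 and Cuffdiff, with GRCm38 and mm10. Settings, strandedness of the counting and any between-library scaling were not given in the sources used. FPKM are not counts, so no count test was run and no counting interval is given.

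Groups and replicate numbers came from the source names. The labels do not state that each library is its own animal. The p-values then measure only how these libraries spread, which may be technical. Values were analysed as log2(FPKM + 0.5), a scale that understates changes of low genes, with limma 3.58.1 in R 4.3.3 (mean-variance trend, two-sided, no covariate), adjusted by Benjamini-Hochberg over all 12181 loci. The fit was tested on simulated data, drawn with the same spread per locus in both groups and no deviation common to a library. That test cannot show how the calls behave where knockouts spread more than controls. Shares and ratios were compared by exact permutation in scipy 1.17.1. The members, the lists, the motifs and the rule for named genes (all members, other complex V genes past the threshold, and the 5 nearest profiles) were chosen with earlier results of these data known. Alternatives covered pseudocount, filter, scaling, variance model, weights, replicate block and leaving out each library.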

Additional observations from a re-analysis of the deposited data

How the results depend on the processing

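With no filter on low values 1 member and 7 other complex V genes were lower (8 changed), beside 9.45% of loci lower and 17.5% changed. With array weights 7 members were lower and 1 higher, beside 27.6 and 23.5% of loci. The weights were 3.30, 0.296 and 0.383 for knockout replicates 1 to 3, so the knockout side of that fit rests mostly on replicate 1. Scaling to the same summed FPKM gave 1402 loci lower and 3229 higher, against 2377 and 1966. With the replicate block 2 members and 9 other complex V genes were lower, beside 14.8% of loci. Deviations of same-numbered libraries correlated at -0.08, -0.06 and -0.01. No pairing by number was seen, but 3 libraries per group are too few to show that there is none. With 3 pairs the exact sign-flip test of the shares and the ratio gives 0.25, its smallest p. Leaving out each library in turn gave 1 to 5 members lower and 0 to 1 higher, 5 to 16 other complex V genes lower (6 to 17 changed), and 1409 to 2389 loci lower, 1212 to 2153 higher and 2621 to 4542 changed. The sign turned for Atp5d (0.031) and Atp5g1 (0.087) with quantile normalization, and for Atp5g2 without control replicate 1 (-0.14) and knockout replicate 1 (-0.06), within a range of -0.14 to 0.29. Atp5k, Atp5e, Atp5h, Atp5j, Usmg5, Tmem242 and Slc25a5 kept direction and call in all 15 alternatives. With array weights Atp5b (adjusted p = 0.00987), Atp5g1 (0.0497), Atp5l (0.0134) and Atpif1 (0.0222) also passed by limma. Without the variance trend Atp5b passed too (adjusted p = 0.0290 by limma). The cause of these changes was not tested. Depth differed with genotype, and its part in the values was not tested.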
